A study of Mus musculus with 18 samples.

Results

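The elements described are the endogenous retroviruses of class ERV1 that belong to neither the murine leukaemia virus, GLN and VL30 groups nor the LTRIS, MuRRS and RLTR30 names. They were taken by the class part of each row name, with those groups left out by name. This gave 92 of the 1365 repeat subfamilies in each table, out of 122 rows of class ERV1, and 3 of the 92 carry that class with a question mark. Each row stands for a subfamily and pools the reads assigned to its genomic copies. How reads that fit several copies were assigned is not known here.

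The study holds 18 mouse libraries of poly(A) RNA, 3 in each of 6 groups. The treated groups received NVP-AUY922, a drug that inhibits the chaperone HSP90, for 24 h at 100 nM in embryonic stem cells (ESCs), at 500 nM in bone-marrow-derived macrophages and at 50 nM in neuronal progenitor cells (NPCs), and each was set against untreated cells of its type. ESCs (kept in 2i medium) and NPCs were of the background 129S1/CASTEiJ, and macrophages of the background BALBC/C57BL6, so that cell type and dose, and for macrophages strain, cannot be told apart. Nothing in the labels says that the libraries of a group came from separate cultures or animals, so the p-values measure a spread that may be technical. The tables list repeats and no genes, so the labelled cell types were not checked against marker genes.

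ERV1 elements descend from retroviruses related to today's gammaretroviruses. An intact copy has an internal part with the viral genes (row names ending in -int) between a pair of long terminal repeats (LTRs), which hold the promoter and the signal for poly(A) addition. Recombination between the LTRs of a copy leaves a solitary LTR, and most old copies persist in that form. Such LTRs can act as promoters or enhancers of nearby genes, and in mouse ESCs many retroviral copies are silenced by the corepressor TRIM28 and the histone methyltransferase SETDB1. Names beginning with RLTR, RMER or RodERV belong to rodent repeats, while most names beginning with MER or LTR and a number were given to repeats known from other mammals too.

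Each cell type has 1 deposited table with the authors' comparison of its 6 libraries, and no value per library was analysed here. A log2 fold change is followed by ± its standard error (SE), both from the authors' deposited table. The sources used here do not say which group is the contrast's numerator, so a value is called positive or negative as it stands, and which sign means more RNA in treated cells is unknown. The base mean is the authors' average, over a table's 6 libraries, of counts scaled by size factors, and it measures reads of a whole subfamily, not RNA per copy or per length. A row is called where the authors' adjusted p was under 0.05. In cultures sequenced in bulk, fewer cells that make an RNA and less RNA per cell cannot be told apart. Library depths are not known here.

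ERV1 members took 0.854% of the summed base mean in ESCs, 0.772% in macrophages and 0.995% in NPCs. Members with reads had a median base mean of 70.0 in ESCs, of 34.7 in macrophages and of 37.4 in NPCs, against 126, 88.0 and 104 over all rows with reads. RMER5 and MLTR14, LTRs by name, had the most reads of all members in each table. RMER5 held 11.5% of the members' reads in ESCs, and 14.0% and 14.1% in macrophages and NPCs, while MLTR14 held 9.16%, 13.9% and 11.7%, in the same order of cell types. The authors' deposited tables gave MLTR14 log2 fold changes of 0.10 ± 0.07, 0.11 ± 0.06 and 0.25 ± 0.14, and RMER5 values of -0.19 ± 0.08, 0.08 ± 0.06 and 0.20 ± 0.15. None of these 6 values was called, with adjusted p between 0.0608 in ESCs and 0.536 in NPCs in the authors' deposited tables. Of the other abundant members, RodERV21-int, a rodent internal part with a base mean of 1489 in ESCs, lay at 0.03 ± 0.08, 0.23 ± 0.11 and 0.11 ± 0.16 in the authors' deposited tables and was not called in any cell type. MURVY-LTR, of a retrovirus repeated on the mouse Y chromosome, lay at 0.09 ± 0.10 in ESCs, -0.15 ± 0.10 in macrophages and 0.01 ± 0.18 in NPCs according to the authors' deposited tables, also not called.

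**Figure D1:**
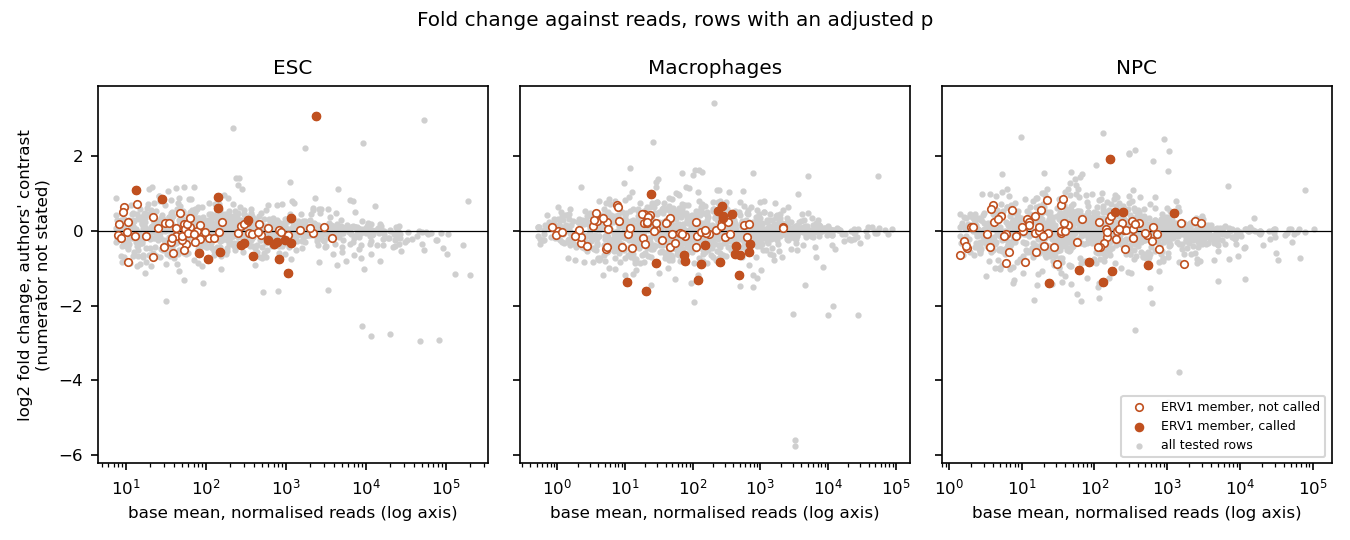
Log2 fold change (authors' contrast, numerator not stated) against base mean on a log axis, 1 panel per cell type, for rows with an adjusted p; filled orange points are called ERV1 members, open ones members not called, and grey points all tested rows. Among members MER89 stands alone at 3.06 in ESCs, where grey points of the retroviral classes ERVL and ERVK reach 2.95 and 2.75. No member lies beyond 2 in either direction in macrophages or NPCs.

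In ESCs a single member, MER89, stood apart from the others. MER89 is an LTR, and the authors' deposited table put it at 3.06 ± 0.10 (adjusted p 7.733e-195). The groups thus differed 8.35-fold in a row with a base mean of 2373. This was the highest of the 1132 values tested there, where rows of the retroviral classes ERVL and ERVK reached 2.95 and 2.75. MER89 held 7.23% of the members' reads in ESCs, against 0.734% in macrophages and 0.726% in NPCs. These shares pool treated and untreated cells, so the ESC share also reflects the difference between the groups. The next member, LTR109A2, lay at 1.09 ± 0.33 in the authors' deposited table, at a base mean of only 13.3.

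Of the 92 members, 81 had an adjusted p in ESCs and 20 of these were called, 24.7% against 22.2% of all tested rows. On the positive side 7 were called (8.64%, against 10.2% of all tested rows), and on the negative side 13 (16.0%, against 12.0%). The share of members called on either side was thus near that of all rows. The median log2 fold change of tested members was -0.05 and that of all tested rows 0.0019. The other positive calls in ESCs lay under 1 on the log2 scale. RLTR48C lay at 0.89 ± 0.18, LTR58 at 0.84 ± 0.29, MER92B at 0.60 ± 0.16, RMER2 at 0.34 ± 0.08 and RLTR24B_MM at 0.30 ± 0.12 in the authors' deposited table. Among them RMER2 had the most reads, with a base mean of 1169, and LTR58 the fewest, with 28.2.

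The negative calls in ESCs were led by an internal part. MER34B-int, of a MER34 element, had -1.12 ± 0.11 and an adjusted p of 7.137e-22 by the authors' deposited table, 2.17-fold apart at a base mean of 1050. MER31B, an LTR with a base mean of 817, followed at -0.76 ± 0.10, for which the authors' deposited table gives an adjusted p of 1.882e-12. MER34-int lay at -0.74 ± 0.19 and LTR37A at -0.56 ± 0.16 in the authors' deposited table. Rodent LTRs made up most of the rest. RLTR1D2_MM at -0.66 ± 0.13 had the smallest adjusted p of these, 2.039e-06 in the authors' deposited table. RLTR41C lay at -0.60 ± 0.20, RLTR41 at -0.33 ± 0.09 and RLTR41A2 at -0.31 ± 0.12 in that authors' deposited table. Thus 3 of the 4 RLTR41 rows were called negative, against 12.0% of all tested rows, too few rows to read a share from. The fourth, RLTR41B, was not called by the authors' deposited table, with -0.52 ± 0.23 and an adjusted p of 0.097. RLTR14_RN at -0.36 ± 0.10, RLTR24 at -0.30 ± 0.10, RLTR1A2_MM at -0.26 ± 0.09, MERV1_LTR at -0.25 ± 0.10 and MLTR73 at -0.39 ± 0.15 completed the list in the authors' deposited table. The calls of MERV1_LTR, RLTR24B_MM and RLTR41A2 were lost when the adjustment ran over every row with a p, with adjusted p of 0.0512, 0.0512 and 0.0523. Those 3 and the ESC calls of LTR58, MLTR73, RLTR1A2_MM, RLTR24 and RLTR41C were lost under the Benjamini-Yekutieli adjustment, a stricter one that allows for dependence between rows.

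**Figure D2:**
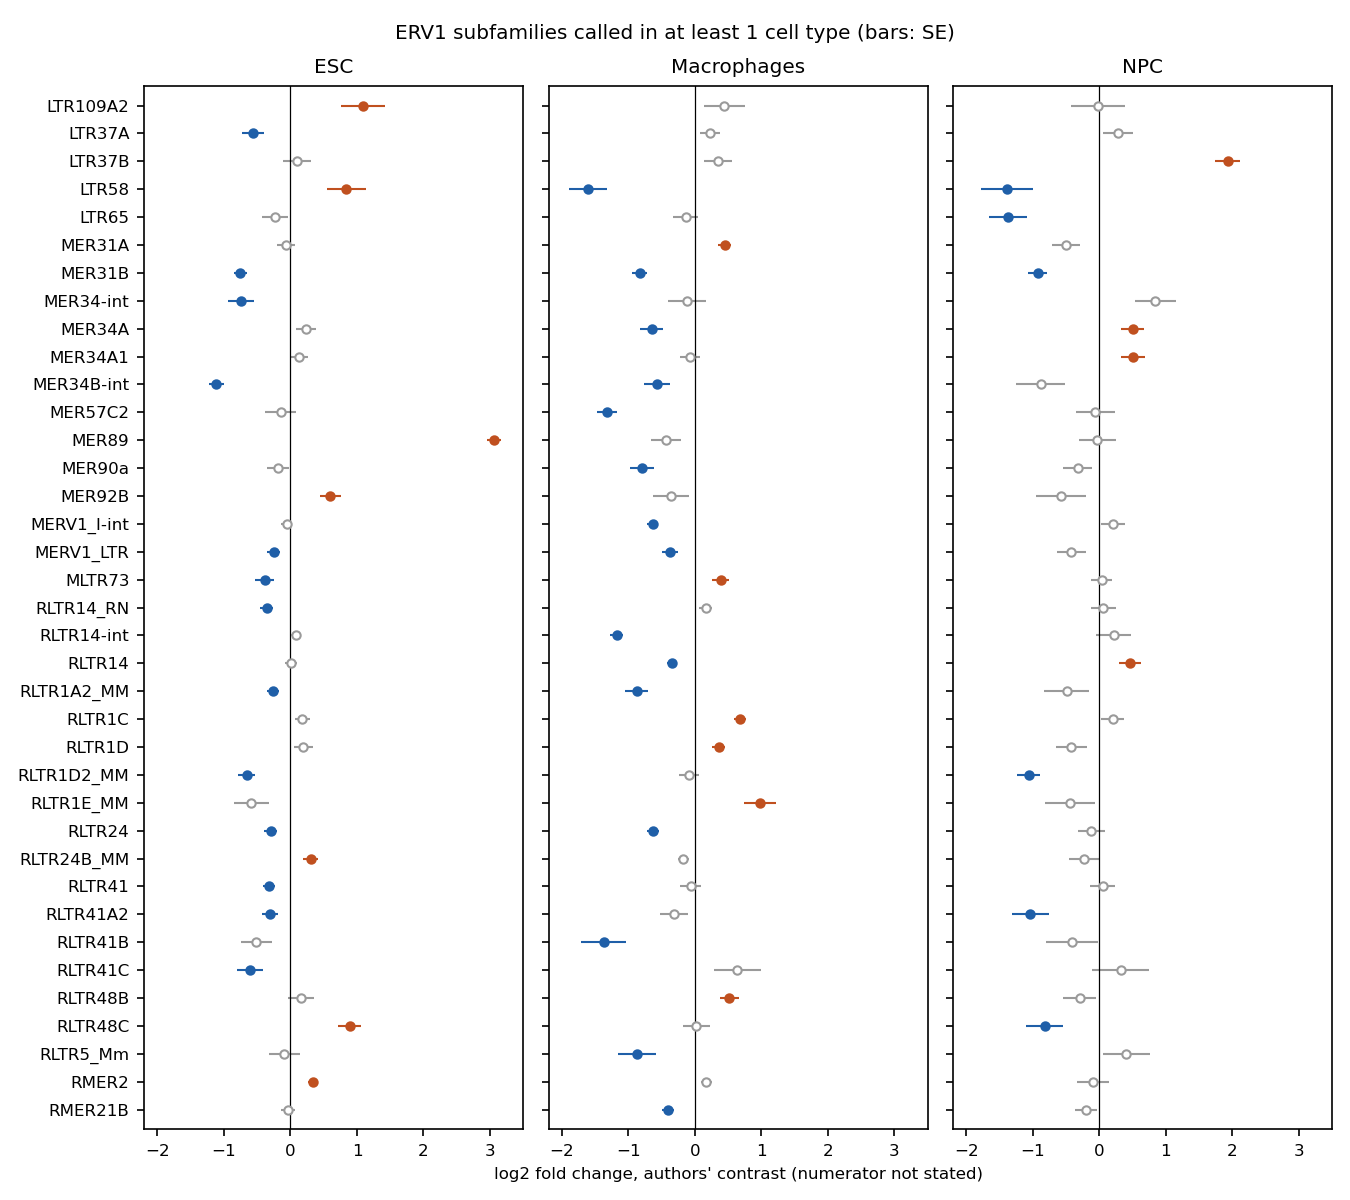
Log2 fold change with SE (authors' contrast, numerator not stated) of the ERV1 members called in at least 1 cell type, 1 panel per cell type; filled points are called, orange on the positive and blue on the negative side, and open grey points are not called. Filled points of MER31B lie on the negative side in all 3 panels, while LTR58 is positive in ESCs (0.84) and negative in macrophages (-1.60) and NPCs (-1.38).

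In macrophages the calls lay mostly on the negative side and none of the positive ones reached 1 on the log2 scale. An adjusted p was given for 86 members, and 21 were called, 24.4% against 25.8% of all tested rows. Of these 6 were positive (6.98%, against 13.3% of all tested rows) and 15 negative (17.4%, against 12.5%). The median over tested members was -0.02 and over all tested rows -0.01. RLTR14-int, the internal part of a rodent ERV1 element, had the smallest adjusted p at 8.948e-34 in the authors' deposited table. Its value there was -1.18 ± 0.09, or 2.26-fold, with a base mean of 479. MER57C2, an LTR of base mean 119, has -1.32 ± 0.16 in the authors' deposited table and an adjusted p of 1.068e-15. Lower still were LTR58 at -1.60 ± 0.29 and RLTR41B at -1.37 ± 0.34 in the authors' deposited table, but their base means were 20.8 and 10.7.

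The MERV1 rows, an internal part and its LTR, were both negative in macrophages, where the authors' deposited table gave MERV1_I-int -0.63 ± 0.08 and MERV1_LTR -0.38 ± 0.12. MER31B at -0.83 ± 0.12, RLTR24 at -0.63 ± 0.09 and RLTR1A2_MM at -0.87 ± 0.17 had adjusted p of at most 4.858e-06 in the authors' deposited table. MER90a at -0.79 ± 0.18 and MER34A at -0.65 ± 0.17 were also called there, as was RLTR14, the LTR of RLTR14-int, at -0.34 ± 0.07 in the authors' deposited table. MER34B-int lay at -0.57 ± 0.20 (adjusted p 0.0194) in the authors' deposited table. RMER21B at -0.40 ± 0.10 and RLTR5_Mm at -0.87 ± 0.28 completed the negative calls of the authors' deposited table, and both are named here after their values were seen.

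On the positive side in macrophages, 3 of the 6 calls carried RLTR1 names, out of 5 RLTR1 rows tested. Of all tested rows 13.3% were called positive there, and 5 rows are too few to read a share from. RLTR1C, with a base mean of 275, lay at 0.68 ± 0.09 (adjusted p 1.079e-12) in the authors' deposited table. RLTR1E_MM lay at 0.98 ± 0.24 and RLTR1D at 0.36 ± 0.10 in the authors' deposited table. A further RLTR1 row, RLTR1A2_MM, was the one on the negative side, so that the 4 called RLTR1 rows were split. The remaining positive calls in the authors' deposited table were RLTR48B at 0.52 ± 0.15, MER31A at 0.45 ± 0.10 and MLTR73 at 0.39 ± 0.13. The macrophage calls of MER34B-int, MERV1_LTR, MLTR73 and RLTR5_Mm were lost under the Benjamini-Yekutieli adjustment.

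In NPCs fewer members were called, with wider errors. The median SE of tested members was 0.30 in NPCs, 0.19 in ESCs and 0.25 in macrophages, and at a base mean of at least 50 it was 0.21, 0.14 and 0.12, in the same order. Of 87 tested members 10 were called, 11.5% against 11.8% of all tested rows, 4 on the positive side (4.60%, against 4.96%) and 6 on the negative side (6.90%, against 6.81%). These shares were again near those of all rows, and the median over tested members was 0.0065 against 0.00089 over all tested rows.

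LTR37B stood at the positive end in NPCs. The authors' deposited table gave it 1.93 ± 0.19, 3.81-fold at a base mean of 166, with an adjusted p of 6.257e-21, and it ranked at 8 from the top of 1249 tested rows. LTR37A, of the same name group, lay at 0.28 ± 0.23 and LTR37-int at -0.06 ± 0.35 in the authors' deposited table, neither called. The other positive calls were MER34A1 at 0.51 ± 0.18, MER34A at 0.50 ± 0.18 and RLTR14 at 0.46 ± 0.16, each with an adjusted p between 0.0360 and 0.0423 in the authors' deposited table, and these 3 calls were lost under the Benjamini-Yekutieli adjustment. Among negative values MER31B had the smallest adjusted p, 4.221e-09, at -0.93 ± 0.14 in the authors' deposited table. RLTR1D2_MM lay at -1.06 ± 0.18, LTR65 at -1.37 ± 0.28 and RLTR41A2 at -1.04 ± 0.28 in the authors' deposited table. LTR58 at -1.38 ± 0.39, with a base mean of 23.5, and RLTR48C at -0.82 ± 0.28 were the last of the negative calls in the authors' deposited table, and that of RLTR48C was also lost under the Benjamini-Yekutieli adjustment.

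Among members, as among all rows, calls were more frequent at higher base means. In ESCs 18 of 55 members with a base mean of at least 50 were called (32.7%, against 26.0% of all such rows), and 2 of 26 tested members below it (7.69%, against 9.93% of all such rows). In macrophages the counts were 17 of 39 (43.6%, against 36.3%) and 4 of 47 (8.51%, against 9.26%), and in NPCs 9 of 42 (21.4%, against 15.3%) and 1 of 45 (2.22%, against 5.82%). By side, 9.09% of ESC members with a base mean of at least 50 were called positive and 23.6% negative. All such rows gave 11.7% and 14.3%. In macrophages the shares were 12.8% and 30.8%, against 19.1% and 17.2%. In NPCs they were 9.52% and 11.9%, against 6.62% and 8.66%. These gaps were not tested. The 30 ERV1 rows left out by name, with a median base mean of 788 in ESCs against 70.0 for members, were called at 46.7% in ESCs, 53.3% in macrophages and 23.3% in NPCs, a difference from members that was not tested. Among members, rodent names had more reads than MER and LTR names, with a median base mean of 452 in ESCs, against 50.4 for MER names and 26.7 for LTR names. The counts for name lists that follow are to be read against the all-row shares of positive and negative calls, 10.2% and 12.0% in ESCs, 13.3% and 12.5% in macrophages, and 4.96% and 6.81% in NPCs, and no difference from them was tested. Of the 29 rodent-named members, 3 were positive and 7 negative in ESCs, 4 and 7 of 28 tested in macrophages, and 1 and 3 of 29 in NPCs. MER names gave 2 positive and 4 negative of 36 tested in ESCs, 1 and 7 of 39 in macrophages, and 2 and 1 of 39 in NPCs. This pattern of letters also takes in the pair of MERV1 rows, without which the counts were 2 and 3 of 34, 1 and 5 of 37, and 2 and 1 of 37, in the same order. LTR names gave 2 and 1 of 11, 0 and 1 of 14, and 1 and 2 of 14. The 5 remaining names, MLTR and EUTREP rows, gave 0 and 1 in ESCs, 1 and 0 in macrophages and 0 and 0 in NPCs.

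Internal parts and LTRs are separate rows. Of 17 internal parts, 15 were tested in each table, and few were called: 0 positive and 2 negative in ESCs, 0 and 3 in macrophages, and 0 and 0 in NPCs, where 3 had an unadjusted p under 0.05. Over all tested rows the positive and negative shares were 10.2% and 12.0% in ESCs, 13.3% and 12.5% in macrophages, and 4.96% and 6.81% in NPCs, so that 15 rows are too few to read a side from. Positive values with an unadjusted p under 0.05 that were not called were MER34-int in NPCs at 0.84 ± 0.31 (adjusted p 0.0550), MER31-int in ESCs at 0.49 ± 0.25 (0.155) and RodERV21-int in macrophages at 0.23 ± 0.11 (0.133), by the authors' deposited tables. Negative ones in NPCs were MER34B-int at -0.88 ± 0.37 (adjusted p 0.109) and MER65-int at -0.86 ± 0.43 (0.227) in the authors' deposited table. In ESCs the negative one was MER89-int, given below. LTRs gave 7 positive and 11 negative of 66 tested in ESCs, 6 and 12 of 71 in macrophages, and 4 and 6 of 72 in NPCs. For 7 internal parts an LTR of the same name was listed. MER89-int lay at -0.82 ± 0.33 in ESCs in the authors' deposited table, at a base mean of 10.5 and with an adjusted p of 0.0592, while its LTR MER89 lay at 3.06 ± 0.10. The MER34B LTR lay at -0.30 ± 0.20 in ESCs (adjusted p 0.332) in the authors' deposited table, against -1.12 ± 0.11 for MER34B-int. MER34 lay at -0.04 ± 0.16 in ESCs in the authors' deposited table, against -0.74 ± 0.19 for MER34-int. RLTR14 and RLTR14-int were both called in macrophages and on the same side, at -0.34 and -1.18 in the authors' deposited table. In ESCs neither was called, and the authors' deposited table gives RLTR14 0.01 ± 0.09 at a base mean of 821 and RLTR14-int 0.08 ± 0.09 at 2004. An internal part and its LTR come from the same libraries and may share reads, and the difference within a pair was not tested.

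**Figure D3:**
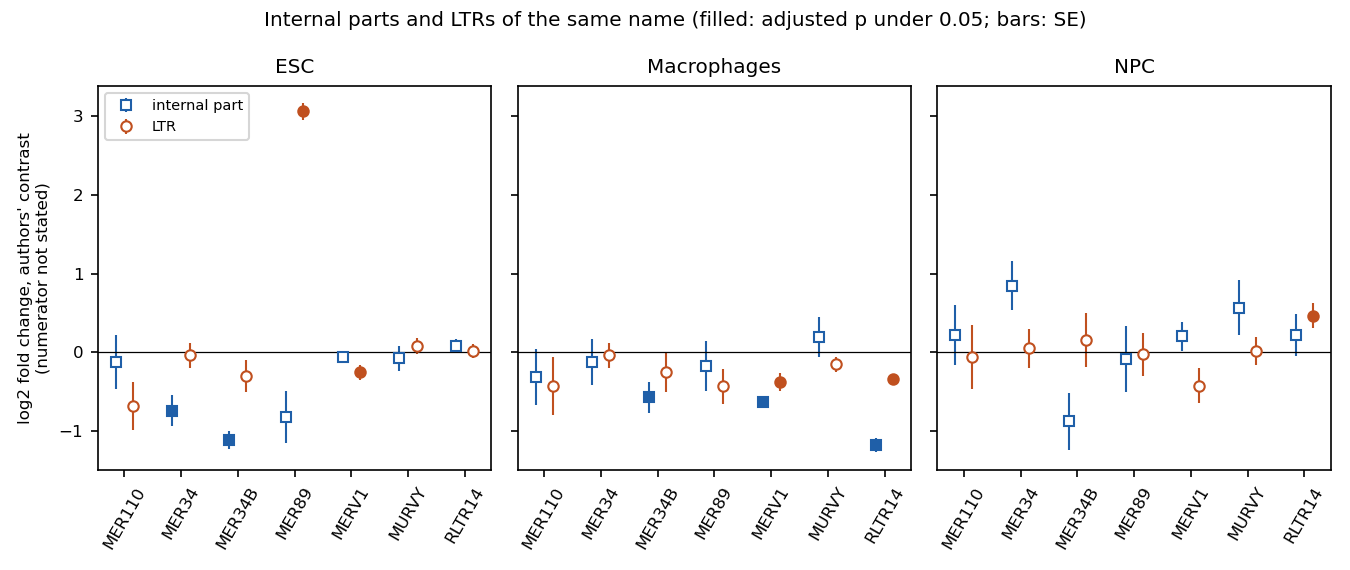
Log2 fold change with SE (authors' contrast, numerator not stated) of the 7 internal parts (blue squares) that have an LTR of the same name (orange circles), 1 panel per cell type; filled symbols have an adjusted p under 0.05. In ESCs MER89 lies at 3.06 and MER89-int at -0.82, and in macrophages RLTR14-int lies at -1.18 below RLTR14 at -0.34.

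Within name groups, the signs listed were not the same in every cell type. All 8 MER34 rows had negative values in macrophages, between -0.65 and -0.04 in the authors' deposited table, with 2 of them called. In NPCs 6 of the 8 had positive values, with 2 called, and the range ran between -0.88 and 0.84 in the authors' deposited table. In ESCs 6 of the 8 were negative, with 2 called. Of all tested rows, 645 of 1255 were negative in macrophages, 626 of 1249 positive in NPCs and 561 of 1132 negative in ESCs. MER34-int and MER34C had base means of only 0.955 and 2.75 in macrophages. MER34B-int, which had the most reads of the group, was negative in each cell type. In NPCs it lay at -0.88 ± 0.37 (adjusted p 0.109) in the authors' deposited table, at a base mean of 1707. The RLTR1 rows had 0 positive and 2 negative calls of 6 in ESCs, 3 and 1 of 5 tested in macrophages, and 0 and 1 of 6 in NPCs. Of the RLTR48 rows, RLTR48C was the one called in ESCs and in NPCs, on opposite sides, and RLTR48B the one called in macrophages. With 22.2%, 25.8% and 11.8% of all tested rows called in ESCs, macrophages and NPCs, groups of this size say little by their counts of calls. Rows of a name group can share reads, so that they are not independent observations.

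To compare cell types, the log2 fold changes of each row tested in both tables were subtracted and scaled by the square root of their added squared SEs. The p-values were two-sided, from the normal distribution, and adjusted by the Benjamini-Hochberg method over all such rows. No library enters more than 1 table. This assumes that all tables have the same group as numerator, a point not given in the sources used here, so the test was repeated with the sign of the second table turned. A row that passes both ways differs in the size of its value whichever way the tables run. Between ESCs and macrophages 21 of 80 members differed (26.2%, against 23.7% of all rows), of which 10 passed both ways (12.5%, against 11.8%). Between ESCs and NPCs 9 of 81 differed (11.1%, against 12.6%), and 3 passed both ways (3.70%, against 6.04%). Between macrophages and NPCs 13 of 84 differed (15.5%, against 12.4%), and 5 passed both ways (5.95%, against 6.06%). The shares of members were close to those of all rows in each pair.

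MER89 differed most between ESCs and the other cell types. In macrophages it lay at -0.43 ± 0.22 and in NPCs at -0.03 ± 0.28 in the authors' deposited tables, neither called, at base means of 113 and 150. ESCs minus macrophages gave a difference of 3.49 (95% interval 3.02 to 3.97, adjusted p 2.802e-45), and ESCs minus NPCs one of 3.09 (2.51 to 3.66, adjusted p 1.53e-23), and both passed with either orientation. LTR37B differed between NPCs and each of the other 2 cell types. ESCs minus NPCs gave -1.83 (-2.39 to -1.27) and macrophages minus NPCs -1.58 (-2.14 to -1.02), where the authors' deposited tables list LTR37B at 0.10 ± 0.21 in ESCs and 0.35 ± 0.21 in macrophages. LTR65 likewise differed between ESCs and NPCs by 1.14 (0.47 to 1.81) and between macrophages and NPCs by 1.23 (0.56 to 1.90).

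RLTR14-int and MER57C2 were set apart by macrophages. ESCs minus macrophages gave 1.26 for RLTR14-int (1.0 to 1.51, adjusted p 4.996e-21) and 1.17 for MER57C2 (0.61 to 1.73, adjusted p 4.316e-04). Macrophages minus NPCs gave -1.40 for RLTR14-int (-1.95 to -0.84) and -1.26 for MER57C2 (-1.92 to -0.61), and all 4 differences passed with either orientation. The authors' deposited tables list MER57C2 at -0.15 ± 0.24 in ESCs and -0.06 ± 0.30 in NPCs, neither called. RLTR1D2_MM was lower in size in macrophages, at -0.09 ± 0.15 in the authors' deposited table, than in ESCs or NPCs, with differences of -0.58 (-0.96 to -0.19) for ESCs minus macrophages and 0.98 (0.52 to 1.43) for macrophages minus NPCs. Both passed with either orientation.

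Only MER31B and LTR58 were called in all 3 cell types, and how many of all rows were so called was not counted. The authors' deposited tables list MER31B at -0.76 in ESCs, at -0.83 in macrophages and, lowest, at -0.93 in NPCs. None of its differences passed: 0.08 for ESCs minus macrophages (-0.23 to 0.38), 0.17 for ESCs minus NPCs (-0.17 to 0.51) and 0.09 for macrophages minus NPCs (-0.27 to 0.46), with tables oriented alike. With the sign of the second table turned, all 3 passed, with adjusted p of 1.236e-22, 2.511e-20 and 2.793e-19, so that the likeness of its values holds only for tables oriented alike. LTR58 was positive in ESCs and negative in both other tables, and its differences were 2.44 for ESCs minus macrophages (1.64 to 3.24) and 2.22 for ESCs minus NPCs (1.26 to 3.18). Turned in the same way, these gave adjusted p of 0.162 and 0.525, and neither passed. Macrophages and NPCs gave LTR58 values that did not differ past the threshold, by -0.22 (-1.17 to 0.73). Its base mean was at most 28.2 in any table.

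Some members were called in more than 1 cell type. ESCs and macrophages shared 7 called members, 35.0% of the 20 and 33.3% of the 21, where all rows shared 42.2% of the ESC calls and 32.7% of the macrophage calls. ESCs and NPCs shared 5, 25.0% of the 20 and 50.0% of the 10, against 20.7% and 35.4% over all rows. Macrophages and NPCs shared 4, 19.0% of the 21 and 40.0% of the 10, against 18.2% and 40.1% over all rows. As listed, the shared members had the same sign in 5 of 7, 3 of 5 and 2 of 4 cases, in the same order of pairs, against 67.9%, 71.2% and 74.6% of the calls shared over all rows. Were a table of a pair turned, same and opposite signs would change places, so these tallies hold for tables oriented alike. In all, 25 members were called in 1 table, 10 in 2 tables, 2 in 3 tables and 55 in 0 tables. The same tally was not made over all rows, so these counts cannot be read as many or few. With the signs as listed, the opposite calls besides LTR58 were MLTR73 in ESCs (-0.39) and macrophages (0.39), RLTR48C in ESCs (0.89) and NPCs (-0.82), and MER34A (-0.65) and RLTR14 (-0.34) in macrophages against 0.50 and 0.46 in NPCs, all from the authors' deposited tables. Under the Benjamini-Yekutieli adjustment each of these members and LTR58 lost at least 1 of its opposing calls. Over the members tested in both tables, Pearson's r of the log2 fold changes was 0.07 between ESCs and macrophages over 80 members, 0.03 between ESCs and NPCs over 81 and 0.24 between macrophages and NPCs over 84. Without MER89 the values were 0.17, 0.04 and 0.24, and over all rows tested in both they were 0.20, 0.13 and 0.35. Spearman's rank correlation over members was 0.29, 0.06 and 0.17, in the same order, against 0.14, 0.10 and 0.20 over all rows. At a base mean of at least 50 in both cell types, Pearson's r was 0.05, 0.19 and 0.13 over 38, 42 and 38 members. Spearman's was 0.20, 0.31 and 0.16 there. These correlations run across subfamilies that share libraries and may share reads, and are given as a description.

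**Figure D4:**
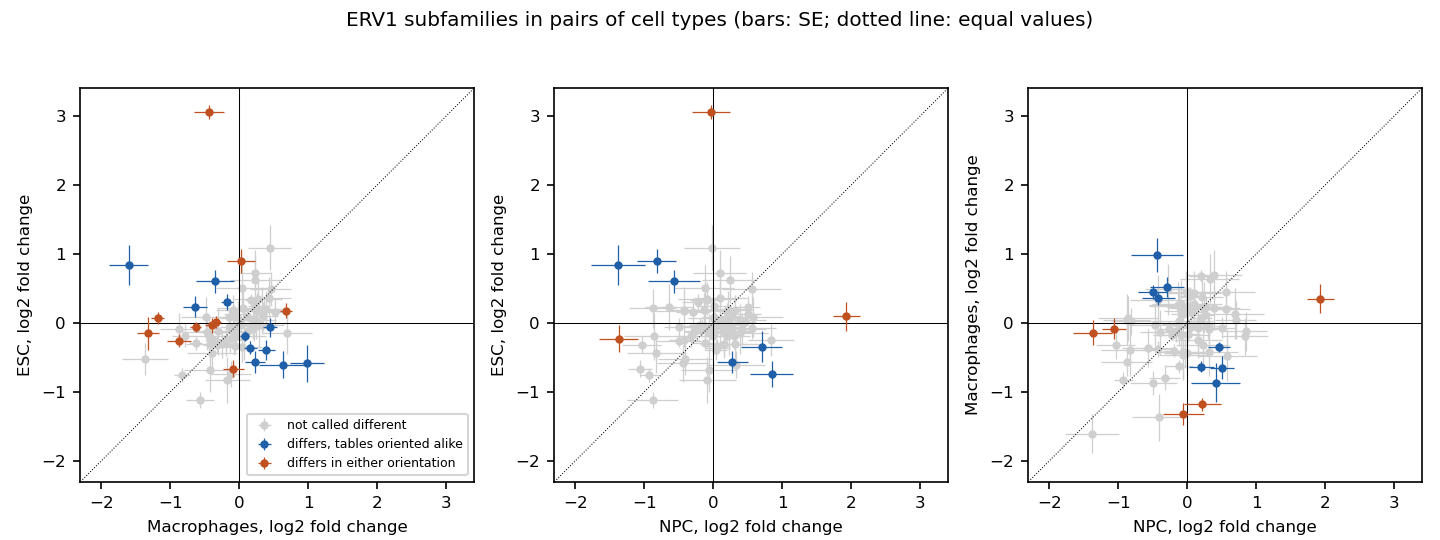
Log2 fold changes with SE (authors' contrast, numerator not stated) of ERV1 members in pairs of cell types; grey points did not differ past the threshold, blue ones differed with the tables oriented alike, orange ones with either orientation, and the dotted line marks equal values. MER89 lies at 3.06 in ESCs against -0.43 in macrophages and -0.03 in NPCs, and LTR37B at 1.93 in NPCs.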

How the data were processed

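Libraries were made from poly(A) RNA with a strand-keeping kit and read from both ends, per the labels' protocols. The build was mm10, and the tools named are DESeq2, featureCounts, TopHat2 2.0.13, Bowtie2, deepTools and Trim Galore, without their roles, per the submitters' processing notes. The sources used here do not say how reads that fit several copies were assigned or whether strand was used, so related rows and genes that hold a copy may share reads. Per the file headers, each deposited table gives a base mean (a signal, counts divided by size factors), a log2 fold change with its SE (log2), a Wald statistic (a score) and the p-value and adjusted p-value. The statistic equalled fold change over SE, and the adjusted p a Benjamini-Hochberg adjustment, within a relative 1e-06 in every row that has them. Adjusted p-values exist only above a base mean of about 7.39 in ESCs, 0.511 in macrophages and 1.40 in NPCs. Rows under a base mean of 1 had absolute log2 fold changes of at most 0.42, so values of rows with few reads may have been shrunken towards 0. The differences between cell types, their intervals and the correlations took values and SEs as listed. What any shrinkage did to them was not tested.

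Main calls are the authors' adjusted p under 0.05, without a count model, since no counts per library were analysed here. Differences between cell types were computed with Python 3.11.15, pandas 2.3.3 and SciPy 1.17.1, over all rows tested in both tables. What reads shared between related rows did to these differences was not tested. Named per cell type were called members beyond 1 on the log2 scale (up to 15 a side), filled to 10 a side by adjusted p, the 8 with the highest base mean, members called in all tables, rows of the same name stem, MER89 and MER57C2. The remaining called members, and LTR78B, were named after their values were seen. Also named outside the rule, and not called, were LTR37-int, MER31-int, MER65-int, MER34C, MER95, MER83A-int, MER83B-int, LTR75_1 and RLTR1. Members, lists and rules were chosen with earlier results of these data known. No sequence of a repeat was used here.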

Additional observations from a re-analysis of the deposited data

Results flagged for a closer look

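The values below are differences between log2 fold changes of the same subfamily in a pair of cell types that passed an adjusted p of 0.05 with the tables oriented alike. There were 43, over 28 members. They rest on the normal test of the difference, not on a call in one cell type and not in the other. Taking ESCs and macrophages, ESCs and NPCs, and macrophages and NPCs in turn, members passed at 26.25%, 11.1% and 15.5%. All rows passed at 23.7%, 12.6% and 12.4%. With either orientation the shares were 12.5%, 3.70% and 5.95% of members, against 11.8%, 6.04% and 6.06% of all rows. Members thus passed about as often as all rows.

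With either orientation of the tables, 18 passed. For ESCs minus macrophages these were MER89 at 3.49, RLTR14-int at 1.26, MER57C2 at 1.17, RLTR48C at 0.87, RLTR1A2_MM at 0.62, MERV1_I-int at 0.57, RMER21B at 0.37, RLTR14 at 0.36, RLTR1C at -0.50 and RLTR1D2_MM at -0.58. For ESCs minus NPCs they were MER89 at 3.09, LTR65 at 1.14 and LTR37B at -1.83. For macrophages minus NPCs they were LTR65 at 1.23, RLTR1D2_MM at 0.98, MER57C2 at -1.26, RLTR14-int at -1.40 and LTR37B at -1.58.

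The others passed only with the tables oriented alike, and whether the tables are so oriented was not tested. For ESCs minus macrophages these were LTR58 at 2.44, MER92B at 0.96, MER34A at 0.88, RLTR24B_MM at 0.47, RMER5 at -0.26, MER31A at -0.51, RLTR14_RN at -0.52, MLTR73 at -0.78, LTR37A at -0.79, RLTR41C at -1.24 and RLTR1E_MM at -1.57. For ESCs minus NPCs they were LTR58 at 2.22, RLTR48C at 1.71, MER92B at 1.17, LTR37A at -0.84, LTR78B at -1.05 and MER34-int at -1.58. For macrophages minus NPCs they were RLTR1E_MM at 1.42, MER31A at 0.94, RLTR48B at 0.81, RLTR1D at 0.77, RLTR14 at -0.81, MERV1_I-int at -0.84, MER34A at -1.15 and RLTR5_Mm at -1.28. The cell types differ in dose and, for macrophages, in strain, which cannot be told apart from the cell type.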

How the results depend on the processing

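An adjusted p of 0.01 in place of 0.05 left 12 called members in ESCs (7 negative), 6 in NPCs (1 positive) and 5 that differed between ESCs and NPCs. The Benjamini-Yekutieli adjustment, which allows for dependence between rows, left the same numbers, 12 with 7 negative, 6 with 1 positive, and 5, and 11 that differed between ESCs and macrophages. Counts over all tested rows were not made at these settings, so the falls cannot be read as particular to members. Requiring a difference with either orientation left 10 for ESCs and macrophages, 3 for ESCs and NPCs and 5 for macrophages and NPCs. A base mean of at least 50 in both tables left 5 for ESCs and NPCs. The cause was not tested. All other counts and medians stayed within 1.5 times or 1 median SE of their main value under the alternatives run. Among 138 values of single members, no call changed side on centring. Under Benjamini-Yekutieli 16 calls were lost (LTR58, MERV1_LTR, MLTR73, RLTR1A2_MM, RLTR24, RLTR24B_MM, RLTR41A2 and RLTR41C in ESCs; MER34B-int, MERV1_LTR, MLTR73 and RLTR5_Mm in macrophages; MER34A, MER34A1, RLTR14 and RLTR48C in NPCs), and 3 when every row with a p was adjusted. No paired analysis was possible because the tables give 1 comparison per row and no value per library was used; leaving out a replicate was not run for the same reason.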

Other observations

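Of the 92 members, 80 had an adjusted p in all 3 cell types and 3 in none. MER83A-int had a base mean of 0 in each of the authors' deposited tables. MER83B-int reached 0.423 in ESCs and LTR75_1 2.18 in ESCs in the authors' deposited table, too few reads for an adjusted p. RLTR1 was listed at 0 in macrophages and at 10.6 in ESCs in the authors' deposited tables. MER95, with a base mean of 5.19 in ESCs, lay at 0.64 ± 0.33 in the authors' deposited table with an unadjusted p of 0.0545 and no adjusted p.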
